A study of Mus musculus with 2 samples.

Results

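The transcripts described here are mouse protein-coding transcripts made of exactly 2 exons, joined across a single intron, that span 2500 to 200000 bases from start to end. They were chosen from the GENCODE M21 annotation (GRCm38, also the build of the deposited values) and not by any measured value. The rule found 2302 transcripts of 1927 genes, among 46833 protein-coding transcripts with an intron value and 91702 transcripts with an intron value in all. Spans just inside the limits were 2501 bases (Ifi206) and 196868 bases (Gpr39), and the nearest transcripts outside spanned 2497 bases (Neurog2) and 207430 bases (Nfib).

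The values come from wild-type (WT) mouse embryonic stem cells of a single line, DTCM23/49 XY, depleted of feeder cells and kept on gelatin with serum and leukemia inhibitory factor. The cells received 4-thiouridine (4sU), a uridine analogue that is built into new RNA, at 200 µM for 10 min. RNA carrying 4sU was biotinylated and held on streptavidin beads, which gave the labeled library, and the RNA left in the supernatant gave the unlabeled library. The 2 libraries are the fractions of biological replicate 1, so they share genotype, line, medium and labeling and differ in the fraction only. For the supernatant library the labels are not uniform, since its description names preexisting RNA and its title total RNA, and it was read as unlabeled RNA, as in the study's methods. With 1 library per pool there is no replicate error and no test was made: the intervals given below are 95% intervals that cover the number of transcripts only, and transcripts of the same gene share reads. Exon and intron values are length-normalized abundances in the deposited unit, and read depth is unknown.

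Markers of the cell type were checked in the same table. All 10 embryonic stem cell markers were present, with exon values of 87.4 to 6384 in labeled and 72.9 to 10031 in unlabeled RNA. The exon values of 8 fibroblast or feeder markers summed to 19.9 and 59.4, with 3 markers at 0 in both libraries, and 4 of 5 endoderm markers were at 0. Mesoderm markers summed to 6.27 and 12.5, and neural markers to 143 and 154, nearly all of it from a single marker.

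Introns are removed from precursor RNA by the spliceosome, in many cases while RNA polymerase II is still transcribing the gene. In a transcript with a single intron, the same intron is both the first and the last to be removed, and the exon after it carries the polyadenylation site. Many such genes keep their whole coding sequence in the second exon and have the intron in the 5′ untranslated region (UTR), an arrangement known for connexins, Sprouty genes and several glycosyltransferases. Immediate early genes, Hox genes and SOCS genes also tend to have few and short introns. The ratio of intron to exon value in RNA made within a short pulse, set beside the same ratio in older RNA, is the observable from which the study's model derives processing and degradation rates.

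The exon junctions below are shown because these members held the most extreme intron to exon ratios among well-expressed members with an intron inside the coding sequence. Each is read 5′ to 3′ along the transcript from the GENCODE M21 sequences, up to 15 bases on each side of the junction. Capitals mark the last 2 bases of exon 1 and the first base of exon 2.
Cd24a: ctcctacccacgcAGAtttactgcaaccaa
Gm17571: tgtgtgtgtatacGAAcatatctgttctta
C330021F23Rik: atgcAGAgccaacagagaaac
Kat6b: agaagtatctgagAAGccagccatacgccc
Socs2: agctcagtcaaacAGGatggtactggggaa
Gm21992: gtgacgtggtaaaAGGtgggatgtgtgtgg
Pml: caaagccctgcagAGTccgaggcccgcctc
The first 3 had low ratios in at least 1 library and the other 4 had high ones. The run of C330021F23Rik is shorter because its first exon is only 6 bases long, of which all are shown. The introns removed at these junctions were chr10:43579323-43582603 (Cd24a, plus strand), chr9:13444050-13446679 (Gm17571, minus strand), chr8:3580475-3583834 (C330021F23Rik, plus strand) and chr14:21517281-21670739 (Kat6b, plus strand). Those of Socs2, Gm21992 and Pml were chr10:95413111-95414830, chr19:4785568-4811171 and chr9:58220058-58249540, all on the minus strand.

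Over the 1032 members that passed the filter described next, exon 1 ended in AG in 56.2% (Wilson interval 53.2 to 59.2%). The share was 53.3% at the first junction of coding transcripts of the same span with 3 or more exons. AG before and G after the junction, counted on the transcript strand only, stood in 27.2% of members (24.6 to 30.03%) and in 25.5% of those first junctions (24.95 to 25.97%). Members with these letters had a median unlabeled ratio of 0.175 (n = 281), against 0.227 in members without (n = 751), and their quartiles, 0.0652 to 0.473 and 0.0679 to 0.614, overlapped almost fully. The letters of the introns themselves were not analysed here.

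Many members were silent or nearly so. Of the 2302 members, 614 (26.7%, Wilson interval 24.9 to 28.5%) had an exon value of 0 in both libraries, against 11.7% of 39183 coding transcripts of the same span with 3 or more exons. In 455 of the 614 the intron value was above 0 in at least 1 library, and 159 members were at 0 in all 4 values. All 4 values were above 0, with a mean exon value of the libraries above 1, in 1032 members of 854 genes (44.8%, against 71.8% of the transcripts with 3 or more exons). The comparisons below rest on these 1032. The other 1270 members comprise 997 with a mean exon value of 1 or less and 273 with a higher mean but a value of 0 among the 4. The latter were 11.9% of members, against 2.9% of the transcripts with 3 or more exons. A mean exon value of 100 or more was reached by 104 members of 87 genes, or 4.52%, against 14.2%.

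The gene lists show which members were silent. Over all 1927 genes, 522 were at an exon value of 0 in both libraries and 854 entered the main set. Of 123 odorant and other sensory receptor genes, 102 had their highest member at an exon value of 0 in both libraries and 1 entered the main set. Of 27 Hox genes, the regulators of body axis identity, 19 were at 0, none entered, and the highest mean exon value was 1.04. Protocadherins (5 genes, 4 at 0) had a highest mean exon value of 0.165 and none of them entered, and 12 of 28 potassium channel genes were at 0 and 3 entered. By contrast 37 of 48 Zfp genes, 13 of 21 Zbtb and Klhl genes, 5 of 7 pluripotency genes and all 3 Sprouty genes entered the main set.

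The members that entered the main set had a median intron of 6466 bases (quartiles 2920 and 13622), a median first exon of 209 bases and a median second exon of 1192 bases. The intron lay in the 5′ UTR in 529 members, inside the coding sequence in 480 and in the 3′ UTR in 23. In 439 members, of 367 genes, every coding transcript of the gene with an intron value had 2 exons. The other 593 members, of 487 genes, belong to genes that also have coding transcripts with 3 or more exons, between which RSEM divides the reads. An end was tagged as incomplete in 339 members (32.9%), the intron overlapped an exon of another gene in 274 (26.6%), and 75 (7.27%) shared at least 50% of their length at 95% identity or more with a transcript of another gene. Shared sequence was searched for members only, so its share over other transcripts is not known. In 632 members (61.2%) the intron overlapped an exon of another transcript of the same gene. The part of this overlap in the ratios given below was not tested.

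In labeled RNA, introns of the members stood almost as high as their exons. The median labeled intron to exon ratio was 0.832 (interval of the median 0.778 to 0.916, quartiles 0.401 and 1.80), and the median unlabeled ratio was 0.207 (0.187 to 0.233). Over all 31386 coding transcripts that passed the same filter, the medians were 0.570 and 0.111. A value of 0 at a mean exon value above 1 removed 11.9% of all members, against 4.79% of all coding transcripts. The effect of this unequal loss on the gap between the medians was not tested. In labeled RNA 44.1% of members had a ratio of at least 1 (Wilson interval 41.1 to 47.1%), where the background over all coding transcripts was 28.2%. Another 7.66% (6.18 to 9.44%) lay below the diagonal, which means a ratio under 1 in labeled RNA and at least as high a ratio in unlabeled RNA, where the background was 5.1%. This left 498 members, or 48.3% (45.2 to 51.3%), compatible with the study's model, which needs an unlabeled ratio below the labeled ratio and a labeled ratio below 1. The background of compatible transcripts was 66.7%.

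**Figure D1:**
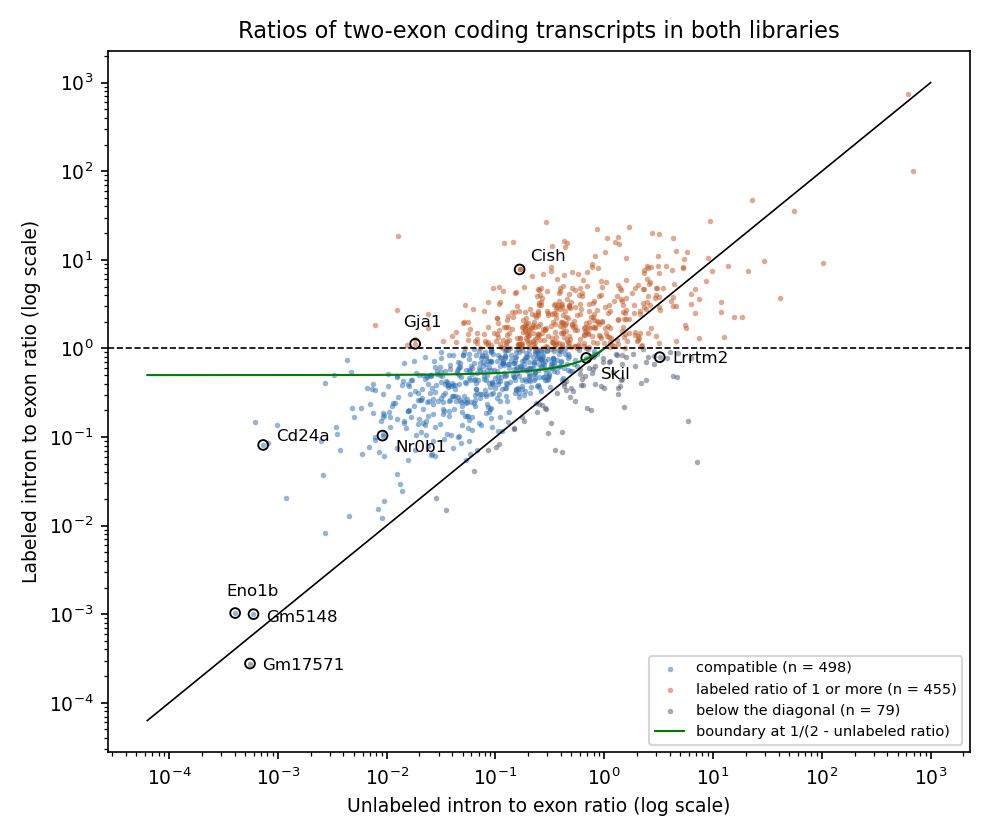
Unlabeled (horizontal) and labeled (vertical) intron to exon ratio of the 1032 members, each on a log scale without unit, 1 point per transcript. The dashed line marks a labeled ratio of 1, the black line equal ratios and the green line the boundary above which the model has a single solution; 498 points are compatible, 455 lie at a labeled ratio of 1 or more and 79 below the diagonal, and the circled members are described in the text.

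The ratios fell with the number of exons in transcripts of the same span. The median labeled ratio was 0.636 with 3 to 5 exons (n = 8237), 0.556 with 6 to 10, 0.528 with 11 to 34 and 0.466 with 35 or more (n = 550), and each of these medians lay outside the interval of the members' median. The median unlabeled ratio fell over the same groups from 0.148 to 0.0567. Two-exon coding transcripts shorter than 2500 bases had a labeled median of 0.396 (0.340 to 0.573, n = 225) and an unlabeled median of 0.182 (0.107 to 0.231), so only the labeled median stood apart from that of the members.

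The size of the gap to transcripts with more exons depended on the exon level. At mean exon values of 1 to 10, the median labeled ratio was 1.64 in members (1.39 to 1.77, n = 455) and 1.19 in transcripts with 3 or more exons. At 10 to 100 the medians were 0.636 (0.570 to 0.692, n = 473) and 0.550. At 100 to 1000 they were 0.252 (0.170 to 0.308, n = 98) and 0.250, a difference well within the interval. The unlabeled medians at that level were 0.0361 (0.0260 to 0.0455) and 0.0324. At 10 to 100 the unlabeled medians stood further apart, at 0.148 (0.120 to 0.174) and 0.09895. At 1 to 10 they were 0.4365 (0.379 to 0.499) and 0.352. The 6 members at 1000 and more had a labeled median of 0.0103, with an interval from 0.001002 to 0.106 that contains the 0.0653 of the other transcripts. Members had a lower typical level (median of the mean exon value 12.6, against 25.2), and the ratio fell with that level across members (Pearson's r = -0.57, Spearman's rho = -0.56 over 1032 transcripts on log scales, where the exon value enters both measures).

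**Figure D2:**
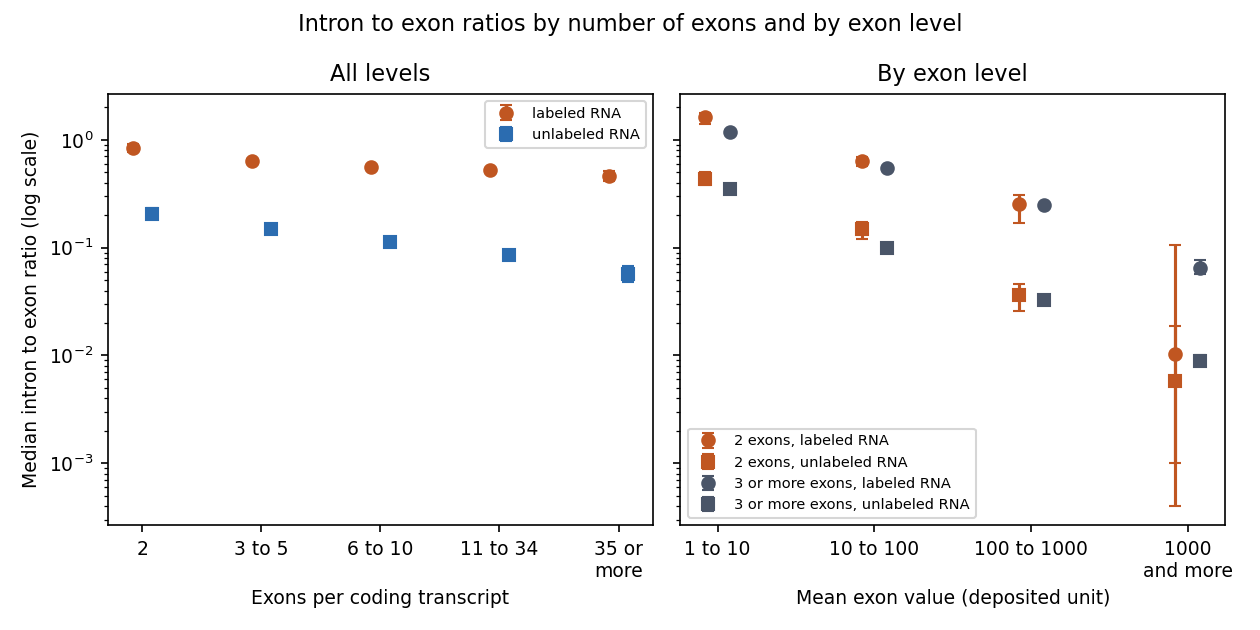
Median intron to exon ratio (log scale) by exons per coding transcript of the same span (left) and by mean exon value in the deposited unit (right); bars are 95% order-statistic intervals over transcripts, circles are labeled and squares unlabeled RNA. The labeled median falls from 0.832 with 2 exons to 0.466 with 35 or more. At exon values of 100 to 1000 the labeled medians of 2-exon transcripts and of transcripts with more exons nearly coincide (0.252 and 0.250). The unlabeled medians there are 0.0361 and 0.0324.

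Members with long introns had the highest ratios in labeled RNA. The median labeled ratio was 0.549 (0.413 to 0.692) for 122 introns under 2000 bases and 0.619 (0.540 to 0.688) for 316 introns of 2000 to under 5000 bases. It was 1.00 (0.852 to 1.08) for 421 introns of 5000 to under 20000 bases and 1.31 (1.10 to 1.49) for 173 introns of 20000 bases and more. The first 2 classes did not differ beyond their intervals, while both stood below the longer classes. A labeled ratio of 1 or more was reached by 29.5%, 32.6%, 50.1% and 60.7% of the 4 classes, and the share below the diagonal fell from 12.3% to 2.31%.

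In unlabeled RNA the same classes were closer together, with medians of 0.128 (0.0917 to 0.207), 0.184 (0.151 to 0.226), 0.231 (0.192 to 0.271) and 0.253 (0.202 to 0.345). Over the 1032 members, log intron length correlated with the log labeled ratio (Pearson's r = 0.24, Spearman's rho = 0.27) more than with the log unlabeled ratio (r = 0.11, rho = 0.13). These correlations describe transcripts of 2 libraries, some of which share reads. The order held at mean exon values of 10 to 100, where the labeled medians were 0.434, 0.565, 0.692 and 0.911. It also held for members of genes without longer coding transcripts, from 0.494 (0.351 to 0.625, n = 76) to 1.20 (0.926 to 1.49, n = 53). In transcripts with 3 or more exons, binned by the summed length of their introns, the labeled medians ran from 0.246 to 0.639, lower than the members' in every class.

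**Figure D3:**
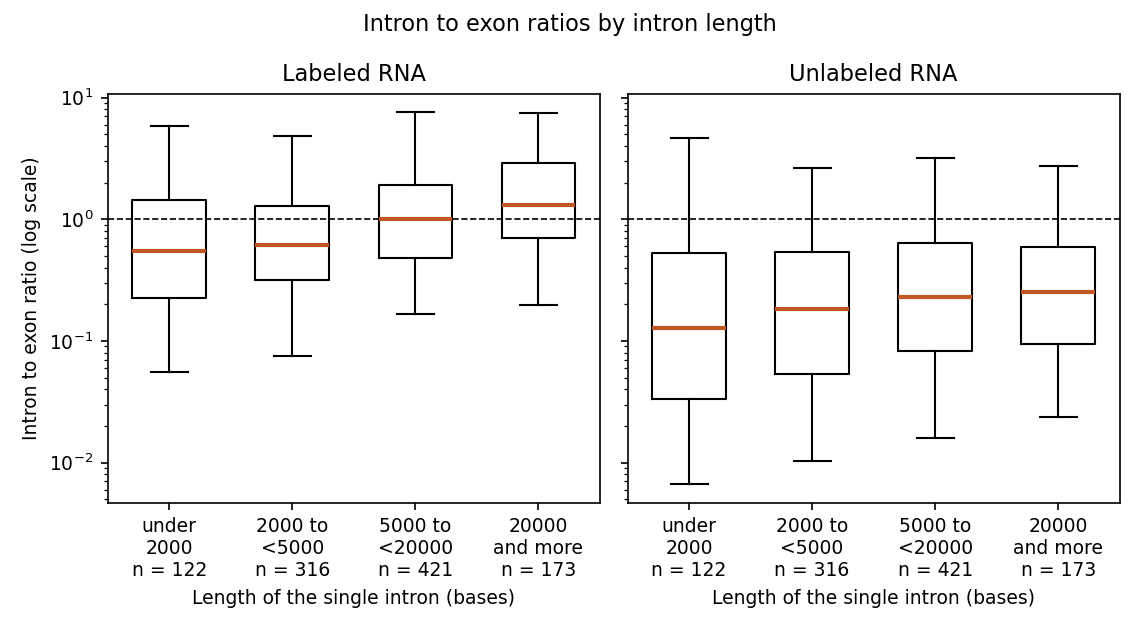
Labeled (left) and unlabeled (right) intron to exon ratio, on a log scale, of members in 4 classes of intron length in bases. Boxes show quartiles with the median in orange, whiskers the 5th and 95th percentiles, and the dashed line a ratio of 1; the labeled median rises from 0.549 to 1.31 while the unlabeled median rises from 0.128 to 0.253.

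The classes by place of the intron overlapped. The median labeled ratio was 0.908 (0.793 to 1.02) for introns in the 5′ UTR and 0.780 (0.681 to 0.872) for introns in the coding sequence, with intervals that overlap. The 23 members with the intron in the 3′ UTR had a labeled median of 0.844 (0.490 to 1.54) and an unlabeled median of 0.567 (0.110 to 1.53). A termination codon upstream of an intron is, as background, the arrangement that nonsense-mediated decay can recognise. Sox12, a transcription factor, is such a member, with an intron of 264 bases: its exons stood at 12.3 labeled and 14.6 unlabeled and its intron at 2.04 and 1.61. Hist1h2bc, a histone H2B gene, is another, with exons at 399.0 and 841.0 and a 7554-base intron at 8.19 and 1.00. It shares 392 bases, or 33.9% of its length, at 98.0% identity with Hist1h2be, which stood at 126.1 and 274.5.

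Members of mixed genes had a labeled median of 0.942 (0.822 to 1.04) and members of genes with 2-exon coding transcripts only had 0.763 (0.672 to 0.830). The intervals overlap narrowly. Members of mixed genes with an incomplete end stood highest, at 1.07 (0.884 to 1.23), and those with complete ends at 0.802 (0.679 to 0.952). Where the intron overlapped another gene on the opposite strand only, the labeled median was 1.13 (0.853 to 1.39, n = 169), against 0.787 (0.714 to 0.869, n = 758) without any overlap. Whether reads were counted by strand is not given in the sources used here. In 469 genes that hold both a member and a coding transcript of 3 or more exons in the main set, each taken at its highest exon value, the member had the higher labeled ratio in 315 (67.2%) and the higher unlabeled ratio in 310 (66.1%). The member was also the less abundant isoform in most of them, with the higher exon value in 139 (29.6%).

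The most abundant members had low labeled ratios, from 0.001002 in Gm5148 to 0.106 in L1td1. Gm5148, a predicted gene, had the highest exon values (3661 labeled, 955 unlabeled) and intron values of 3.67 and 0.57. C330021F23Rik followed with exons at 3579 and 948 and introns at 43.7 and 8.51. These genes share 420 bases at 99.5% identity with each other, and the intron of each overlaps a pseudogene of Rps23, which encodes a ribosomal protein, so the split of reads among these copies is uncertain.

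Eno1b, an enolase retrogene, had exons at 1455 and 2225 and introns at 1.5 and 0.9. It shares 1652 bases, or 92.2% of its length, at 99.5% identity with Eno1, the glycolytic enolase, whose highest transcript stood at 1787 and 3022, so the division of reads between the pair is uncertain. L1td1, an RNA-binding protein of pluripotent cells, had exons at 1309 and 1663 and a 2367-base intron at 139 and 31.2. Ldhb, a lactate dehydrogenase subunit, was represented by a 437-base transcript with an incomplete end. It shares 166 bases at 97.0% identity with Gm5514 and stood at 1057 and 686 in exons and 91.2 and 33.4 in introns. In all 5 of these genes the intron was higher in the labeled library, by 1.67-fold in Eno1b to 6.44-fold in Gm5148. The median over all coding transcripts was also higher in that library, by 1.99 on the log2 scale.

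The 87 genes with a member at a mean exon value of 100 or more, each taken at its highest member, had a median labeled ratio of 0.240 and a median unlabeled ratio of 0.0327. The intron value was higher in labeled than in unlabeled RNA in 86 of the 87. No such count over other transcripts is given here, and a higher labeled intron was not particular to members. At mean exon values of 100 to 1000, the median log2 labeled to unlabeled intron value was 2.23 in members and 2.08 in transcripts with 3 or more exons. The exception was a 716-base transcript of Skil, a repressor of Smad signaling, with an incomplete end in a gene that also has longer coding transcripts. Its intron stood at 96.3 labeled and 134 unlabeled beside exons at 123 and 196, the highest unlabeled ratio of the 87 at 0.684. At the other end, Cd24a, a cell surface glycoprotein, had intron values of 6.89 and 0.17 beside exons at 84.7 and 232, a 40.5-fold difference between the libraries in the intron. That fold rests on a very low unlabeled value at unknown depth, and Cd24a shares 218 bases at 96.8% identity with Gm6212. Gm17571 had exons at 505 and 199 over only 90 bases and intron values of 0.14 and 0.11, the lowest labeled ratio, 0.000277, and it was the only one of the 104 well-expressed members below the diagonal. Outside the 87, at a mean exon value of 62.8, B3gnt7, a glycosyltransferase, had intron values of 1.94 and 0.19 beside exons at 51.9 and 73.6.

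Of the 87 genes, 5 had a labeled intron value at or above the exon value. By transcript, the share at mean exon values of 100 to 1000 was 5.10% of 98 members (Wilson interval 2.20 to 11.4%). It was 1.92% in transcripts of the same span and level with 3 or more exons. Gja1, which encodes the gap junction protein connexin 43, had labeled values of 44.9 in the exons and 50.6 in its 10015-base intron, against 243 and 4.44 in unlabeled RNA. Tgif1, a homeobox repressor, stood at 46.4 and 56.9 labeled and at 170 and 11.1 unlabeled. Pml, the organizer of nuclear bodies, had 67.6 and 96.1 labeled and 218 and 27.8 unlabeled. Both of these transcripts have an incomplete end in the annotation and belong to genes with longer coding transcripts, as do the other 2, Gm21992 (ratios 1.40 and 0.473) and Morf4l2 (1.41 and 0.206). These also share 91.7% and 89.1% of their length with a transcript of another gene, so Gja1 was the only one of the 5 with complete ends and 2-exon coding transcripts only. Of the 65 genes named by rule, 19 have an intron that overlaps an exon of another gene, among them Atpif1, Pml, Zfp36l1, Tob2, Cish, Spry4, Zfp644, Zfp260, B3gnt2, B3gnt7 and Sumo3.

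In the 104 well-expressed members, those at a mean exon value of 100 or more, the median labeled ratio also rose over the 4 classes of intron length. It was 0.149 (0.0127 to 0.536, n = 14), 0.168 (0.105 to 0.283, n = 40), 0.243 (0.143 to 0.391, n = 32) and 0.429 (0.169 to 0.763, n = 18), with intervals that overlap. The unlabeled medians, from 0.0240 to 0.0395, did not follow that order. Single members departed from it in either direction. Kat6b, a histone acetyltransferase gene, has a member with an intron of 153459 bases, at 84.0 labeled and 31.6 unlabeled beside exons at 94.0 and 136. Slc39a10, a zinc transporter, has one with 51836 bases and an incomplete transcript end, at 9.52 and 1.27 beside exons at 94.8 and 163. Their labeled ratios were 0.894 and 0.100. Socs2, with an intron of only 1720 bases, had a labeled ratio of 0.904 and an unlabeled ratio of 0.275, from intron values of 81.4 and 32.7. Over 63.2% of its length Socs2 shares 99.5% identity with Gm9847, which stood at 70.6 and 74.9.

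Exon values were close to balanced between the libraries. The median log2 labeled to unlabeled exon value of the members was -0.06 (interval -0.17 to 0.04), where that of all coding transcripts was -0.40, both relative to the whole of each library. The exon value was at least 2-fold higher in labeled RNA in 23.1% of members, against a background of 13.9%, and at least 2-fold lower in 21.03%, against a background of 26.8%. Over the 4 classes of intron length the median was 0.02, 0.10, -0.05 and -0.51, so it stood lowest for introns of 20000 bases and more. Introns were higher in labeled RNA by a median of 2.14 on the log2 scale, against 1.99 over all coding transcripts.

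**Figure D4:**
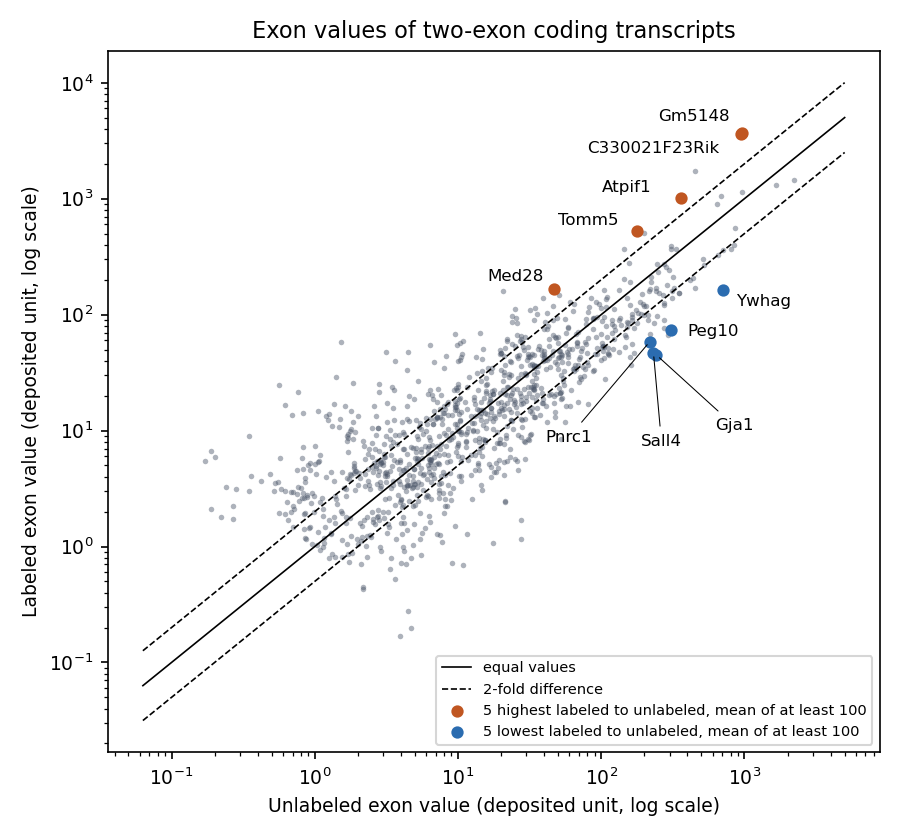
Unlabeled (horizontal) and labeled (vertical) exon value of the 1032 members in the deposited unit, on log scales, 1 point per transcript. The solid line marks equal values and the dashed lines a 2-fold difference; the named points are the 5 genes with the highest and the 5 with the lowest labeled to unlabeled exon value among those with a mean of 100 or more, from 3.83-fold higher in Gm5148 to 5.41-fold lower in Gja1.

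Besides Gm5148 and C330021F23Rik, exon values were 3.53-fold higher in labeled RNA for Med28, a subunit of the Mediator complex (166 and 47.0), and 2.98-fold higher for Tomm5, a subunit of the mitochondrial import pore (528 and 177). They were 2.81-fold higher for Atpif1, an inhibitor of the mitochondrial ATP synthase (1007 and 358). Tomm5 shares 154 bases at 98.7% identity with Gm8069.

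Besides Gja1, exon values were lower in labeled RNA by 4.93-fold for a member of Sall4, a pluripotency transcription factor whose transcript here has an incomplete end (47.0 labeled, 232 unlabeled), and by 4.35-fold for Ywhag, a 14-3-3 adaptor protein (164 and 713). The difference was 4.13-fold for Peg10, an imprinted gene derived from a retrotransposon (73.9 and 305), and 3.74-fold for Pnrc1, a nuclear receptor coactivator (58.6 and 219). In all 5 the introns went the other way, being 4.50-fold to 11.4-fold higher in labeled RNA. Introns of all coding transcripts were also higher there, by a median of 1.99 on the log2 scale.

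The 4 mRNA decay regulators in the main set, of 8 genes by the rule, are proteins known to act with deadenylases on other mRNAs. Zfp36l1, which binds AU-rich elements, had exons at 97.1 labeled and 247 unlabeled and introns at 25.5 and 5.01. Btg2, an antiproliferative factor, was the reverse in its exons, at 20.4 and 6.6, with introns at 14.1 and 0.77. Tob2, of the same family, stood at 8.45 and 19.6 in exons and 7.83 and 1.39 in introns. Nanos3, a germ cell factor, stood at 6.96 and 5.50 in exons and 6.55 and 2.22 in introns. None of the 4 reached a labeled ratio of 1, where 42.4% of all 854 genes did, though Tob2 (0.927) and Nanos3 (0.941) came close.

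Among the 4 growth factor response and SOCS genes, Egr1, an immediate early transcription factor, had exons at 118 and 206 and a 678-base intron at 9.40 and 4.94, a labeled ratio of 0.0799. Socs4, an adaptor for ubiquitin ligases, had exons at 32.9 and 64.6 and a 12295-base intron at 16.3 and 1.98. Cish, a STAT5-induced member of the SOCS family, was low, with exons at 0.28 and 4.50 and introns at 2.18 and 0.75. It was the only gene of the 4 with a labeled ratio of 1 or more, at 7.79, where 42.4% of all 854 genes had one.

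The 5 pluripotency genes differed widely. Nr0b1, a nuclear receptor known as Dax1, had exons at 212 and 318 and introns at 21.97 and 2.91, a labeled ratio of 0.104 close to the 0.106 of L1td1. Gdf3, a ligand of the TGF-beta family, had exons at 113 and 98.9 and introns at 66.4 and 17.4, a ratio of 0.587. Lin28a, the let-7 binding protein, was represented by a 478-base fragment with an incomplete end, whose intron at 33.7 labeled exceeded its exons at 24.9. In unlabeled RNA that fragment stood at 8.06 and 33.8. All 5 introns were higher in labeled RNA, by 3.82-fold in Gdf3 to 7.55-fold in Nr0b1. So was the median intron over all coding transcripts, by 1.99 on the log2 scale.

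The 3 Sprouty genes, feedback inhibitors of receptor tyrosine kinase signaling, all had the intron in the 5′ UTR and lower exon values in labeled RNA. Spry4 stood at 50.6 labeled and 121 unlabeled, Spry2 at 34.3 and 77.4 and Spry1 at 10.4 and 17.4. The difference passed 2-fold in Spry4 and Spry2 but not in Spry1, where 21.6% of all 854 genes were at least 2-fold lower. Their introns stood at 13.4 and 2.36, 14.5 and 8.54, and 6.59 and 1.04, so the intron of Spry2 differed least between the libraries, by 1.70-fold.

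**Figure D5:**
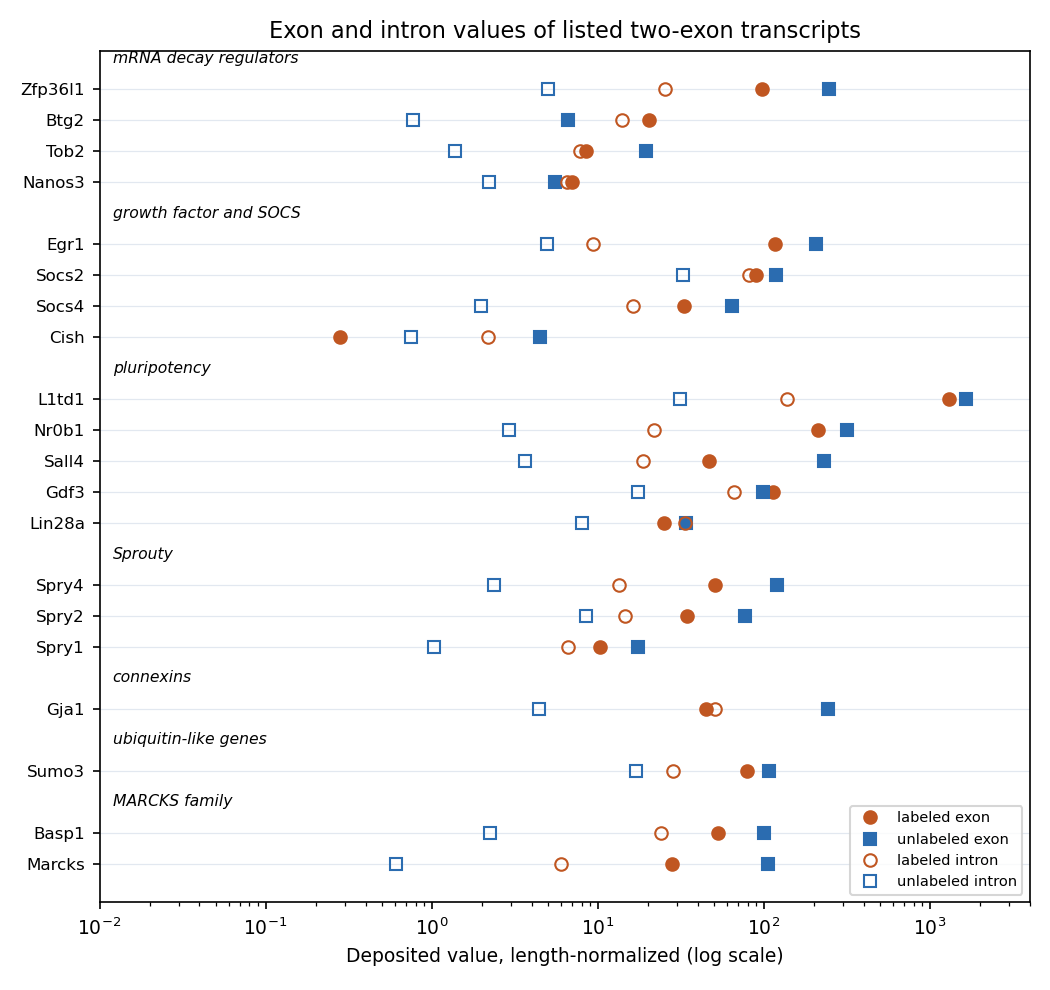
Deposited exon (filled) and intron (open) values, length-normalized and on a log scale, of 20 members from 7 gene lists, in labeled (orange circles) and unlabeled RNA (blue squares). The unlabeled intron lies left of the labeled intron in every gene shown, while the exons lie on either side, with Btg2 higher in labeled and Gja1, Sall4, Marcks and Cish higher in unlabeled RNA.

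Sulfotransferases and glycosyltransferases, which build glycan chains in the Golgi, had a labeled ratio of 1 or more in 10 of 14 genes, with a median of 1.85. Over all 854 genes, each at its highest member, the share was 42.4% and the median 0.798. Hs6st1, a heparan sulfate sulfotransferase with a 34328-base intron, had a labeled exon value of 45.6 and intron value of 59.1, against 93.9 and 15.8 unlabeled. Fut9, a fucosyltransferase that makes the SSEA-1 epitope, had the longest intron of the main set, 178768 bases, at 38.6 and 9.17 beside exons at 40.4 and 99.9. B3gnt2, represented by a transcript with an incomplete end, stood at 48.7 and 8.23 beside exons at 85.3 and 155 and shares 96.5% of its length with Gm28048.

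Zfp genes, which encode zinc finger proteins, had a labeled ratio of 1 or more in 14 of 37 genes (37.8%, against 42.4% over all 854 genes) and an exon value at least 2-fold higher in labeled RNA in 13 (35.1%, against 23.9%). Of the 37, 8 lay below the diagonal, where 72 of the 854 did. Zfp62 had an intron of only 409 bases at 175 labeled and 23.1 unlabeled, beside exons at 92.8 and 89.2. Zfp654 had a 1230-base intron at 76.6 and 45.8 beside exons at 48.8 and 102. Zfp644 and Zfp260, both represented by transcripts with an incomplete end, were lower in the intron than in the exons, with labeled ratios of 0.436 and 0.432.

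Of the 13 Zbtb and Klhl genes, adaptors of cullin ligases and related transcription factors, 5 (38.5%) reached a labeled ratio of 1, close to the 42.4% over all 854 genes. Zbtb21 had introns at 65.2 and 19.8 beside exons at 23.4 and 50.8. Klhl11 had introns at 21.3 and 1.37 beside exons at 29.6 and 76.2, a 15.6-fold difference in the intron. Among Sox, Fox and Pou genes 4 of 8 had a ratio of 1 or more, near that same share, and 4 of 8 an exon value at least 2-fold lower in labeled RNA, where 21.6% of the 854 genes did. Foxi3 stood at 2.46 and 21.4 in exons and at 1.23 and 0.07 in its intron.

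Connexins had an exon value at least 2-fold lower in labeled RNA in 3 of 4 genes, among them Gja1, against 21.6% of all 854 genes. Of the MARCKS family of membrane-bound actin regulators, Marcks stood at 27.8 labeled and 106 unlabeled and Basp1 at 53.0 and 100.5, with introns at 5.99 and 0.61 and at 23.9 and 2.24. Sumo3, a ubiquitin-like modifier represented by a transcript with an incomplete end, had exons at 79.7 and 107 and introns at 28.4 and 17.1. Of 13 leucine-rich repeat genes, 6 (46.2%) had a labeled ratio of 1 or more, close to the 42.4% over all 854 genes, and 2 lay below the diagonal, against 72 of the 854. The latter include Lrrtm2, a synaptic adhesion protein, whose 349-base intron had 21.5 and 17.2 beside exons at 27.0 and 5.30. Olig2 and Neurod1, bHLH factors of the nervous system, were present at 22.7 and 34.2 and at 8.24 and 31.5 in exons, and 2 of 12 bHLH and Id genes entered the main set.

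Rates were computed for the 498 compatible members. The model's equation had no solution in 265 (53.2%, Wilson interval 48.8 to 57.6%), a single solution in 194 (39.0%) and 2 solutions in 39 (7.83%). In transcripts of the same span with 3 or more exons the shares were 57.2%, 34.1% and 8.73%. For the 194 members with a single solution, the median processing half-life, the time in which a precursor pool falls to 50%, was 8.81 min (7.93 to 10.3) and the median degradation half-life 35.01 min (26.3 to 44.0). The corresponding medians with 3 or more exons were 8.68 min and 34.3 min, within those intervals. Both half-lives were computed from the labeled and unlabeled ratios alone. Whether a single solution exists also depends on these ratios, so both groups were selected by the values that set their half-lives. Close medians can follow from that selection. Whether members as a whole are processed or degraded as fast as other transcripts was not tested. The processing half-life rose with intron length over the classes, from 6.62 min (n = 22) and 7.93 min to 9.85 min and 13.9 min (n = 31), but the quartiles, 4.77 to 13.2 min in the first class and 6.10 to 33.99 min in the last, overlap.

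Single solutions of named members ranged widely. Processing and degradation half-lives were 4.27 and 6.37 min for Gdf3, 4.13 and 33.5 min for Ywhag and 4.61 and 34.5 min for Pnrc1. They were 8.05 and 27.8 min for Btg2, 29.6 and 78.0 min for Kat6b and 32.5 and 70.0 min for Socs2. Fut9 had 73.6 and 663 min, its labeled ratio of 0.955 lying close to 1. The degradation values depend on what the second library is: read as total RNA, the median over the 194 members became 85.8 min, and that of Gdf3 25.3 min. Members without a solution, Nr0b1 and Egr1 among them, received the rates nearest to the observed ratios and are not given here.

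The share of T in the exons, where 4sU can enter, had a median of 24.3% in members and 23.8% in transcripts with 3 or more exons. Over 4 equal groups of the members ordered by this share, the median log2 labeled to unlabeled exon value was 0.004, -0.06, -0.01 and -0.19, while lower quartiles ran from -0.92 to -0.83 and upper quartiles from 0.78 to 0.98. Introns of the members took 0.288% of the labeled and 0.129% of the unlabeled library, and their exons 0.531% and 0.551%.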

How the data were processed

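One pulse of 4sU in WT mouse embryonic stem cells gave 1 labeled and 1 unlabeled library. The authors removed ribosomal RNA reads, aligned the rest to exons and introns (Ensembl 91, GRCm38) with STAR 2.5.0, quantified them with RSEM and deposited 1 exon and 1 intron score per transcript, a relative abundance called TPM. The columns sum to 10000003 and 9999998, 10 times the total of a TPM column, so a value of 10 here corresponds to 1 on the usual scale. No counts are given, so depth and counting error are unknown.

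Transcripts were matched by identifier to GENCODE M21 (89935 of 91702 found). The members, gene lists and comparisons were chosen with earlier results of these data known. The main set needed 4 values above 0 and a mean exon value above 1. Shares have Wilson intervals and medians have exact binomial order-statistic intervals, both at 95%. Rates followed the equations of the study on a grid of 4019 points, and the solver was tested on simulated rates. Where 2 solutions existed the larger rate ratio was used. Gene lists and named genes take 1 transcript per gene, that with the highest mean exon value. Named were the 6 highest exon values, the 5 highest and 5 lowest exon differences and ratios and the 3 longest and shortest introns at a mean of 100 or more, and up to 4 genes per list at 10 or more (all genes of 4 lists: decay, growth factor response, pluripotency and Sprouty). Shared sequence was found with megablast (BLAST 2.17.0), on the transcript strand only, so copies in reverse orientation are not counted. Other tools were scipy 1.17.1, pandas 2.3.3, numpy 2.4.6 and, for plots, matplotlib 3.10.9 under Python 3.11.15. Alternatives were other minimums, other sets of isoforms, a pseudocount of 0.1, leakage subtraction (0.142 times the unlabeled value), members without overlap, and, chosen after seeing the data, members without shared sequence or without incomplete ends. The letters inside the introns were not analysed here, and 2 genes that the naming rule found are not reported here.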

Additional observations from a re-analysis of the deposited data

How the results depend on the processing

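No paired analysis was possible because each pool has 1 library and no test was made. Without a minimum of the mean exon value, the members' median labeled ratio was 0.939, the median unlabeled ratio 0.242, 47.9% of members reached a labeled ratio of 1, and the compatible share was 44.5%. With a mean exon value above 10, these were 0.540, 0.106, 25.5% and 68.1%, and the median log2 labeled to unlabeled exon value was -0.23. At that level the members' median over that of transcripts with 3 or more exons fell to 1.22 in labeled RNA (from 1.48) and 1.46 in unlabeled RNA (from 1.93), and the 5′ UTR over coding sequence ratio of the unlabeled medians reversed, to 0.922 from 1.18, inside the interval of the latter (0.83 to 1.56). An exon value above 1 in each library gave a compatible share of 52.4%. With genes of 2-exon coding transcripts only, the medians were 0.763 and 0.176, with 39.6% at 1 or more and 9.57% below the diagonal. A pseudocount of 0.1 gave a labeled median of 0.720, 40% at 1 or more and 12.6% below the diagonal. Leakage subtraction gave 0.992, 49.6%, a compatible share of 42.5% and a log2 exon value of -0.26. Leaving out incomplete ends, chosen after seeing the data, gave 0.773, 39.8% and 51.8%. With 1 transcript per gene, the labeled median was 1.70 times that of transcripts with 3 or more exons. The median degradation half-life, 35.01 min, became 85.8 min with the second library read as total RNA, 44.5 min with leakage subtracted and 25.3 min with the smaller solution of members with 2 included, which also took the processing half-life to 7.20 min. Of 92 alternative values, 60 kept their direction and lay within the interval of the value reported. The planned comparison of splice site letters inside the introns was not run. Depth is unknown, so the deposited level is the only guide to precision. The causes of these shifts were not tested.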

Other observations

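The members with the highest ratios at any level, chosen after their values were seen, had intron values far above those of their exons. 4930558C23Rik had exons at 1.11 labeled and 2.10 unlabeled and a 15650-base intron at 821 and 1299, ratios of 740 and 619, and no exon of another annotated gene lies in that intron. A 2-exon transcript of Lats2, a kinase of the Hippo pathway, had exons at 9 and 0.35 and an intron of 1798 bases at 897 and 241. That intron overlaps exons of 3 other genes, among them Gm20430, whose highest exon values were 3276 and 863, and an exon of Lats2 itself. A transcript of Mettl23, a methyltransferase, had exons at 97.6 and 24 and an intron at 902 and 2483, which overlaps an exon of Srsf2, a splicing factor at 3090 and 7607. The intron of Flg, the epidermal protein filaggrin, stood at 59.9 and 56.0 over exons at 1.25 and 2.45 and overlaps Rplp0-ps1, a pseudogene listed at 1547 and 829. The part of these overlaps in the values was not tested.

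Members also hold stretches shared with other genes more widely than the measure over 50% of the length shows. Of the 87 well-expressed genes, 29 share at least 100 bases at 95% identity or more with a transcript of another gene, and so do 15 of the 65 named genes. Only members were searched, so no share over other coding transcripts stands beside these counts. Whether such sharing is more common in members was not tested.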
